A study of Mus musculus with 20 samples.

Results

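The double knockout livers of this study lacked Cpt2 in the liver and Ppara in the whole body, and their enhancers and promoters are described here by 2 histone marks: acetylation of lysine 27 of histone H3 (H3K27ac) and monomethylation of lysine 4 (H3K4me1). All 4 libraries labelled double knockout for these marks were taken, 2 livers for each mark, out of 20 samples in the series. Each mark had 8 libraries in all, 2 livers for each of 4 genotypes. A region of a mark is a stretch of overlapping peaks that holds a peak of both livers, and marks were taken to meet where their regions shared at least 1 base. The double knockout had 36587 H3K27ac regions and 46481 H3K4me1 regions. Of the H3K27ac regions, 20805 met H3K4me1 and 15782 did not, and 22141 H3K4me1 regions met no H3K27ac.

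The mice were C57BL/6 males aged 9 weeks, and every liver, controls included, was taken after a fast of 24 hours. The groups are wild type (WT), Cpt2 L-/- (a knockout limited to the liver), Ppara -/- (a knockout of the whole body) and the double knockout, Cpt2 L-/- ; Ppara -/-. The Cre driver of the liver knockout is not named in the labels. In the whole-body knockout every cell of the liver and every other organ lacks Ppara, while Cpt2 loss is limited to the liver. Each library comes from chromatin of flash-frozen bulk tissue, in which fewer cells of a type and less mark per cell cannot be told apart. In all 8 pairs of same-numbered H3K27ac and H3K4me1 libraries, the peak names give 1 animal for both marks, so the marks can be compared within a liver.

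H3K4me1 is laid down broadly at enhancers, whether or not they are active, while H3K27ac marks active enhancers and active promoters. Promoters of active genes usually carry trimethylation in place of monomethylation close to the transcription start, so acetylation without H3K4me1 is common there. Cpt2 is the inner-membrane enzyme that releases long-chain fatty acids for oxidation in the mitochondrion, and Ppara is the nuclear receptor that binds fatty acids and turns on their oxidation and ketone synthesis during fasting.

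Peak lists of the 16 libraries held 44454 to 48929 H3K27ac peaks over 42.0 to 47.8 Mb and 61189 to 72151 H3K4me1 peaks over 38.8 to 53.5 Mb. The double knockout lists had 48929 and 48124 H3K27ac peaks and 62452 and 66576 H3K4me1 peaks. The depth of a library in reads is unknown. The smallest peak width differed between libraries: for H3K27ac it was 217 and 223 bases in the double knockout, 221 and 220 in Cpt2 L-/-, 205 and 210 in Ppara -/-, and 206 and 198 in WT. For H3K4me1 it was 210 and 221 in the double knockout, 211 and 196 in Cpt2 L-/-, 200 and 216 in Ppara -/-, and 199 and 199 in WT. At the targeted genes, an H3K27ac interval at chr4:107901663-107903225, just outside the Cpt2 body, was called in both WT livers (folds of 7.77 and 9.87) and both Ppara -/- livers (4.78 and 5.52) and in no liver that lacks Cpt2. Inside Ppara, the interval chr15:85807161-85809538 was called in both WT livers (6.17 and 6.57) and both Cpt2 L-/- livers (5.21 and 5.43) and in no Ppara -/- or double knockout liver, and an interval at chr15:85801195-85801691 was called only in the latter (6.08 and 6.15, then 7.33 and 9.90). These intervals were chosen after their values were seen, for differing by genotype. The interval over the Cpt2 start (chr4:107920649-107924008) stood at 11.5 and 16.9 in WT, 18.7 and 23.3 in Cpt2 L-/-, 8.75 and 9.8 in Ppara -/- and 9.33 and 12.2 in the double knockout, highest in the Cpt2 knockout.

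Promoter sequences show what the classes look like as DNA. They are from RefSeq, assembly GRCm38.p6, which mm10 names, and each holds 250 bases before and 50 bases from the start of a gene, 5′ to 3′ on the gene's own strand, with each CG dinucleotide in capitals. Ndufb3, a subunit of respiratory complex I, has a CG-rich start (chr1:58586147-58586446, plus strand) in one of the strongest H3K27ac regions and no H3K4me1. Sppl2a, an intramembrane protease, has a start with both marks (chr2:126933186-126933485, minus strand). Igsf23, which encodes an immunoglobulin-domain protein, has a CG-poor start whose window meets H3K4me1 only (chr7:19953605-19953904, minus strand). The H3K4me1 region that meets this window stands at percentile 99.5 of that mark.
Ndufb3: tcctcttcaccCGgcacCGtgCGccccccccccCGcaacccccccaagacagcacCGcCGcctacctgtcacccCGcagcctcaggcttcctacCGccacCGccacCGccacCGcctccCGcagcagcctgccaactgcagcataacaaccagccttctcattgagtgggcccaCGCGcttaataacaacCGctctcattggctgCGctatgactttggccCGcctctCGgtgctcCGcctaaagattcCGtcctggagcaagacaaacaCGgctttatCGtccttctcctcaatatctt
Sppl2a: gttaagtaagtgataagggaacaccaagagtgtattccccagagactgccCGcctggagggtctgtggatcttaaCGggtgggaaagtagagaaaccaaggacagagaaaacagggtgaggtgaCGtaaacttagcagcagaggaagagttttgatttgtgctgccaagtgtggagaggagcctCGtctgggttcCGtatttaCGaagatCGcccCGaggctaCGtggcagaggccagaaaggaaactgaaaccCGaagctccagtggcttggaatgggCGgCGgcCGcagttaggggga
Igsf23: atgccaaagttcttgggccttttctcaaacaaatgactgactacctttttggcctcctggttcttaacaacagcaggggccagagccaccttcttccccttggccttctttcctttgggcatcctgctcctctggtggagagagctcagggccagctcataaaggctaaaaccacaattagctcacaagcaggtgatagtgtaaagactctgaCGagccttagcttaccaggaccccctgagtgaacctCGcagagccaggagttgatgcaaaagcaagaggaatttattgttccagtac

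At genes with several starts, the starts could differ in class. Hnf4a, a master regulator of hepatocytes, has a start with H3K4me1 only (chr2:163506607-163506906, plus strand) and, further along, a start with H3K27ac only (chr2:163546905-163547204, plus strand). Both windows hold 4 CG. Rbp4, the plasma carrier of retinol, has a CG-rich start whose window meets H3K27ac only and holds TATAAA (chr19:38124762-38125061, minus strand, 40 CG). A CG-poor start with both marks lies just before it (chr19:38125272-38125571, minus strand, 5 CG). The H3K27ac region that meets the CG-rich window (chr19:38117725-38124809) meets H3K4me1 outside that window and does not hold the gene start. The sequences are shown in the order in which the starts are named.
Hnf4a start 1: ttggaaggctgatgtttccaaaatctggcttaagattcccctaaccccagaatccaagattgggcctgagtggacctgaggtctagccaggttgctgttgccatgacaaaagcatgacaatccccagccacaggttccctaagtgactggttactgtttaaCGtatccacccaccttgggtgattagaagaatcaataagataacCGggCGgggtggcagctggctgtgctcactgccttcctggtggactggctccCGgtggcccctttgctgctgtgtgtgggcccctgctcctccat
Hnf4a start 2: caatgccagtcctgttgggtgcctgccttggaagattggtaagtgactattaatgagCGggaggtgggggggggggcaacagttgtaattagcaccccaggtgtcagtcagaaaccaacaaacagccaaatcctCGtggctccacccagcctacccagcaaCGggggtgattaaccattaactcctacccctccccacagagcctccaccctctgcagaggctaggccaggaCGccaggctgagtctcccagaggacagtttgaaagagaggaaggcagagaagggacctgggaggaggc
Rbp4 start 1: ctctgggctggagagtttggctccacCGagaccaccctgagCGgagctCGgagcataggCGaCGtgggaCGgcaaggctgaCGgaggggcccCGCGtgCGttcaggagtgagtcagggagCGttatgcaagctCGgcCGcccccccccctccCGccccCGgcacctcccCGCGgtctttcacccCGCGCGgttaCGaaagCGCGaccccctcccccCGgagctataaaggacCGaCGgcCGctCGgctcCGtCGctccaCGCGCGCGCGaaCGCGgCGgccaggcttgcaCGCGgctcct
Rbp4 start 2: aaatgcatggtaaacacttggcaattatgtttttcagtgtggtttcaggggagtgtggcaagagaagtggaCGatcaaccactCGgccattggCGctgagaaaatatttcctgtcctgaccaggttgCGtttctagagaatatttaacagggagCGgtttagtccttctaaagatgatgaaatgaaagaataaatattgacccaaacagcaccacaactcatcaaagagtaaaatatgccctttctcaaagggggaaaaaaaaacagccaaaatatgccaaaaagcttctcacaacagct

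Over all promoters, windows with H3K27ac only held the most CG and windows with neither mark the fewest. RefSeq gave 21263 starts for 17492 of the 21887 protein-coding genes. In the double knockout, 7458 of these windows (35.1%) overlapped an H3K27ac region only, with a median of 23 CG in 300 bases. Another 1726 windows (8.12%) overlapped both marks, with a median of 15 CG, and 543 (2.55%) overlapped H3K4me1 only, with a median of 16. The remaining 11536 windows (54.3%) had neither mark and a median of 5 CG.

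The share of acetylated promoters that also had H3K4me1 was lower the more CG a window held. Among windows with 5 CG or fewer, 11.9% were acetylated, and 45.5% of those had H3K4me1. Among windows with more than 30 CG, 70.5% were acetylated, and 7.82% of those had H3K4me1. Windows between these ends lay in order: with 6 to 10, 11 to 20 and 21 to 30 CG, 29.7%, 20.3% and 14.4% of the acetylated windows had H3K4me1. This is a description over windows of the same livers, with no test.

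Motifs were searched on both strands of each 300-base window, where a match is only a description of the letters. TATAAA was in 8.52% of windows with both marks, 6.21% with H3K27ac only, 8.84% with H3K4me1 only and 17.5% with neither, against 12.6% of all windows. GGGCGG, the GC box, which itself holds a CG, was in 55.1%, 67.5%, 55.1% and 30.7% of the same classes, against 46.2% of all. AGGTCA, the half-site bound by many nuclear receptors, was in 19.9% of windows with both marks and 10.98% of those with H3K27ac only, against 14.7% of all. It was in 15.7% of windows with H3K4me1 only and 16.3% of those with neither. The repeat AGGTCANAGGTCA, which contains that half-site and is the form that PPAR and RXR bind, was in 10 of all 21263 windows (0.0470%), 1 of them with both marks and 1 with H3K27ac only. The other 8 had neither mark. CCAAT was in 36.2% of windows with both marks, 37.3% with H3K27ac only, 42.0% with H3K4me1 only and 38.9% with neither, against 38.2% of all.

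Peak summits were placed apart at gene starts. A summit was counted at every start within 2000 bases, so a summit near several starts was counted more than once. H3K27ac had 15275 and 14666 such counts in double knockout livers 1 and 2. Of them, 40.4% and 43.0% lay from 200 bases before to 300 bases after the start. For H3K4me1, of 12389 and 14641 counts, 6.84% and 6.91% lay in that stretch. The fullest 100 bases for H3K27ac were 100 to 200 after the start, with 2798 and 2842 summits, and the 100 bases just before the start held 194 and 221. H3K4me1 summits were most frequent 400 to 300 bases before the start, with 580 and 704. Both livers had the same layout, and the H3K27ac maximum was in the same 100 bases in all 8 libraries. The H3K4me1 maximum was not. It lay 400 to 300 bases before the start in Cpt2 L-/- liver 1 and Ppara -/- liver 2 as well. In both WT livers, Cpt2 L-/- liver 2 and Ppara -/- liver 1 it lay between 900 and 1200 bases after the start. The smallest H3K4me1 peak width was 196 to 200 bases in these livers. In the livers with the maximum before the start it was 210 to 221 bases. Whether that width bears on the layout was not tested.

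**Figure D1:**
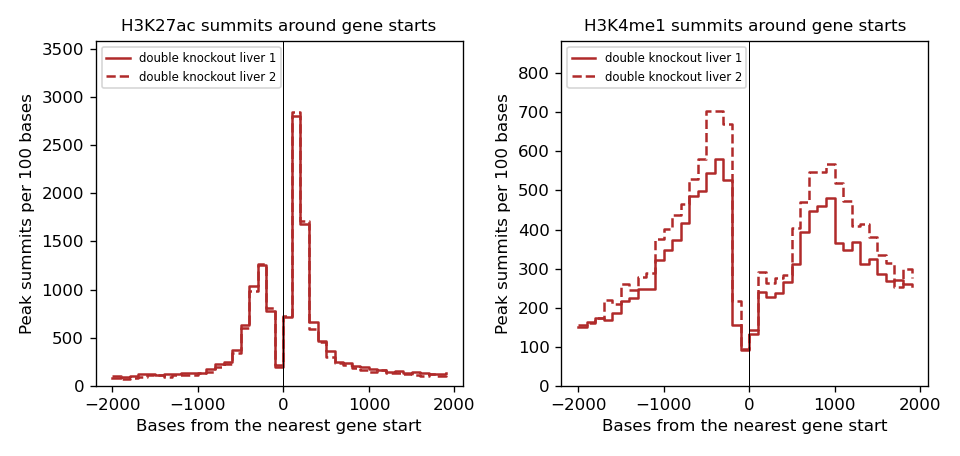
Number of peak summits per 100 bases (vertical axis) by distance in bases from a gene start (horizontal axis, labelled as the nearest start). H3K27ac is on the left and H3K4me1 on the right, with 1 line for each double knockout liver. A summit was counted at every start within 2000 bases, so it can enter more than once. H3K27ac summits reach 2798 and 2842 at 100 to 200 bases after the start, while H3K4me1 summits are fewest around the start and highest on either side of it.

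Regions with both marks were wider and ranked higher than regions with 1 mark. H3K27ac regions with H3K4me1 had a median width of 1127 bases (quartiles 633 and 1875), and those without had 675 bases (454 and 1075). For H3K4me1 the medians were 865 bases with H3K27ac and 565 bases without. Of the H3K27ac regions of 5 kb or more, 561 met H3K4me1 and 14 did not. A wider region has more bases in which to meet another, so width and class are not independent measures.

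Rank was taken within a mark, as the percentile of a region's highest fold enrichment among all regions of that mark in a liver, averaged over both livers. Regions were also sorted into bands of 10 percentiles. The fold is the authors' own value for each peak, the signal at the summit over the background. H3K27ac regions had a median percentile of 53.0 with H3K4me1 and 43.6 without, and 11.1% and 6.39% of them stood above percentile 90. H3K4me1 regions had a median percentile of 57.8 with H3K27ac and 41.1 without, and 12.8% and 2.01% stood above percentile 90. In each liver the order was the same: for H3K27ac the medians were 54.3 against 45.6 in liver 1 and 55.0 against 44.6 in liver 2. Ranks of the livers correlated across regions (Spearman's rho 0.814 over 36587 H3K27ac regions and 0.633 over 46481 H3K4me1 regions), which is a description since regions of a liver are not independent.

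The share of regions with the other mark did not climb evenly with rank. Among H3K27ac regions at a percentile up to 10, 60.0% met H3K4me1. That share was 48.2% at percentiles 30 to 40 and 69.7% above 90. The median width in the same 3 bands was 466, 649 and 2112 bases, so the weakest regions met H3K4me1 more often than those at percentiles 30 to 40 although they were narrower. Regions that cover a gene start went from 17.2% in the lowest band to 60.0% in the highest, and regions that cover none went from 61.6% to 50.1% at percentiles 30 to 40 and 78.3% in the highest band. For H3K4me1 regions the share with H3K27ac was 41.2% in the lowest band, 40.4% in the second and 87.5% in the highest.

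**Figure D2:**
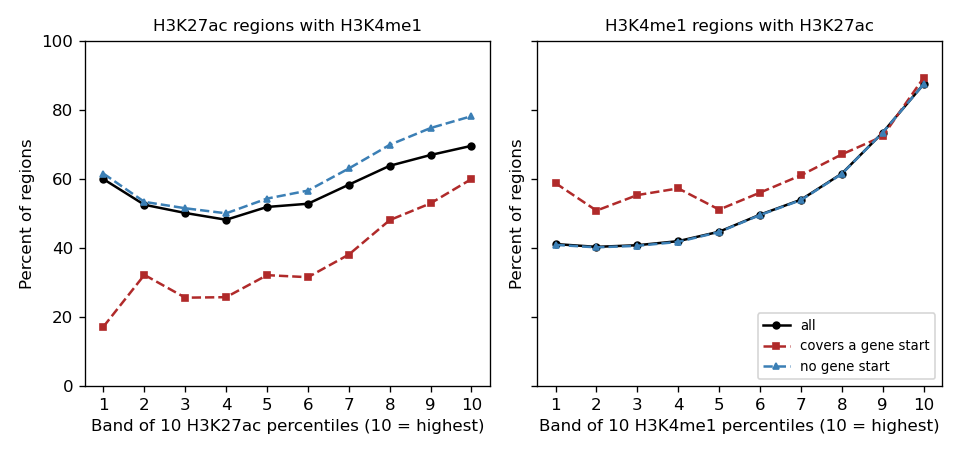
Percent of double knockout regions that meet the other mark (vertical axis) in each band of 10 percentiles of a mark (horizontal axis, numbered from the lowest band to 10 for the highest), for H3K27ac regions on the left and H3K4me1 regions on the right, over all regions and split by whether a region covers a gene start. The share for H3K27ac is lowest in the fourth band, at 48.2%, and for H3K4me1 it reaches 87.5% in the highest.

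Where the marks met, their ranks were only weakly related. Over the 20805 H3K27ac regions with H3K4me1, the percentiles of the marks had a Spearman's rho of 0.179, and it was 0.158 over the 2877 that cover a gene start and 0.277 over the other 17928. Most of these regions, 16829, met 1 H3K4me1 region. A further 3302 met 2, and 674 met 3 or more, up to 9. Points of these correlations share the livers, and no p is given.

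Absence of the other mark was complete in most regions with 1 mark. Of the 15782 H3K27ac regions without an H3K4me1 region, 11481 (72.7%) had no H3K4me1 peak in either liver, 4146 had one in 1 liver, and 155 had one in both livers at different places. Of the 22141 H3K4me1 regions without an H3K27ac region, 17137 (77.4%) had no H3K27ac peak in either liver and 4921 had one in 1 liver. Not being called is a matter of the callers' threshold, so these regions may hold some of the other mark.

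Distance to genes separated the classes of H3K27ac. Regions without H3K4me1 lay nearer to gene ends, the borders of a gene body at either side: their median distance was 4037.5 bases, against 9573 bases for regions with both marks. Within 1000 bases of a gene end were 36.7% of the regions with H3K27ac only and 19.0% of those with both marks. A gene start lay inside 3425 regions (21.7%) with H3K27ac only and 2877 (13.8%) with both marks. Among H3K4me1 regions, 410 (1.68%) with H3K27ac and 256 (1.16%) without covered a start, and the median distances to a gene end were 9347.5 and 12009 bases.

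At starts the acetylated regions were wide and strong in both classes. Regions covering a start had a median percentile of 83.5 and a median width of 1825 bases with H3K4me1, and 70.9 and 1003 bases without. Inside gene bodies and away from their ends, the medians were 42.6 and 1016 bases with H3K4me1 and 34.4 and 615 bases without. The middle of a region lay in a gene body for 63.5% of regions with both marks and 66.5% of those with H3K27ac only. Exons, introns and untranslated regions were not distinguished, since the gene table used gives bodies only.

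Genes were ranked by the percentile of their best H3K27ac region in the double knockout. Of the regions of the first 20, 12 had both marks and 8 had H3K27ac only, 11 held a gene start, and widths ran from 423 to 10862 bases with a median of 2053.5. First was Ap3s1, a subunit of the AP-3 sorting complex, with folds of 66.6 and 83.0 in livers 1 and 2. Mtmr11, a myotubularin-related protein, had 56.5 and 66.2 at a region whose middle lies 306 bases outside its body, and Gga1, a Golgi sorting adaptor, had 53.7 and 66.4. Rfx3 (a transcription factor of ciliary genes), Sppl2a, Gm20346, Git2 (a GTPase-activating scaffold), Mcrs1 and Lrp1 (an endocytic receptor) were also among the 20, with folds from 41.6 to 65.9. The genes were picked by these values, which are therefore a description.

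Ndufb3 was the highest of the regions with H3K27ac only (chr1:58586262-58587058, 797 bases), at 57.8 and 62.8 in the double knockout. The same stretch also holds the start of Fam126b on the other strand. In the other genotypes it stood at 30.6 and 16.95 in WT, 55.9 and 54.2 in Cpt2 L-/-, and 38.8 and 40.0 in Ppara -/-. Both livers that lack Cpt2 alone thus came close to the double knockout, and WT was lowest. No H3K4me1 peak was called there in any of the 8 libraries. Others of the 10 highest in that class were Pnrc1, a nuclear receptor coactivator, with 52.7 and 56.0, and Epc1, a subunit of a histone acetyltransferase complex, with 52.6 and 55.6. Ddx6 (an RNA helicase), Arrdc3 (an arrestin-domain protein), Nup205 (a nuclear pore protein), Cflar (an inhibitor of caspase-8), Prkce (a protein kinase C) and Gpcpd1 (a phosphodiesterase of phosphocholine metabolism) were also among the 10.

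The narrowest of the 20 regions was that of Nup205, 423 bases with folds of 47.6 and 51.1, and the widest was that of Man2a1, a Golgi mannosidase, 10862 bases with 48.0 and 54.6. Rbp4 had 48.4 and 53.7 in the double knockout, 34.7 and 32.0 in WT, 44.7 and 31.3 in Cpt2 L-/- and 34.3 and 37.6 in Ppara -/-. The double knockout livers were the highest, with Cpt2 L-/- liver 1 next.

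Aass, the first enzyme of lysine breakdown, stood out among the 20 for its other genotypes. Its region (chr6:23129043-23134938, 5896 bases, both marks) had folds of 55.3 and 52.0 in the double knockout. WT had 24.6 and 31.2, Cpt2 L-/- 20.6 and 18.4, and Ppara -/- 26.6 and 20.1, so the 6 other livers lay between 18.4 and 31.2 and did not overlap the double knockout. H3K4me1 there was 10.8 and 12.5 in the double knockout, against 5.40 and 6.86 in WT, 7.16 and 4.83 in Cpt2 L-/- and 6.62 and 8.29 in Ppara -/-. Since the gene was chosen for its rank in the double knockout, no test is given for this.

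The 20 genes were among the strongest in the single knockouts too. Their best regions stood in the top 1% of the genotype's H3K27ac regions for 19 of 20 in Cpt2 L-/-, 19 of 20 in Ppara -/- and 11 of 20 in WT. Over the first 100 genes, 62 had both marks and 64 covered a start, beside 56.9% and 17.2% of all 36587 regions, and their median width was 2002 bases.

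**Figure D3:**
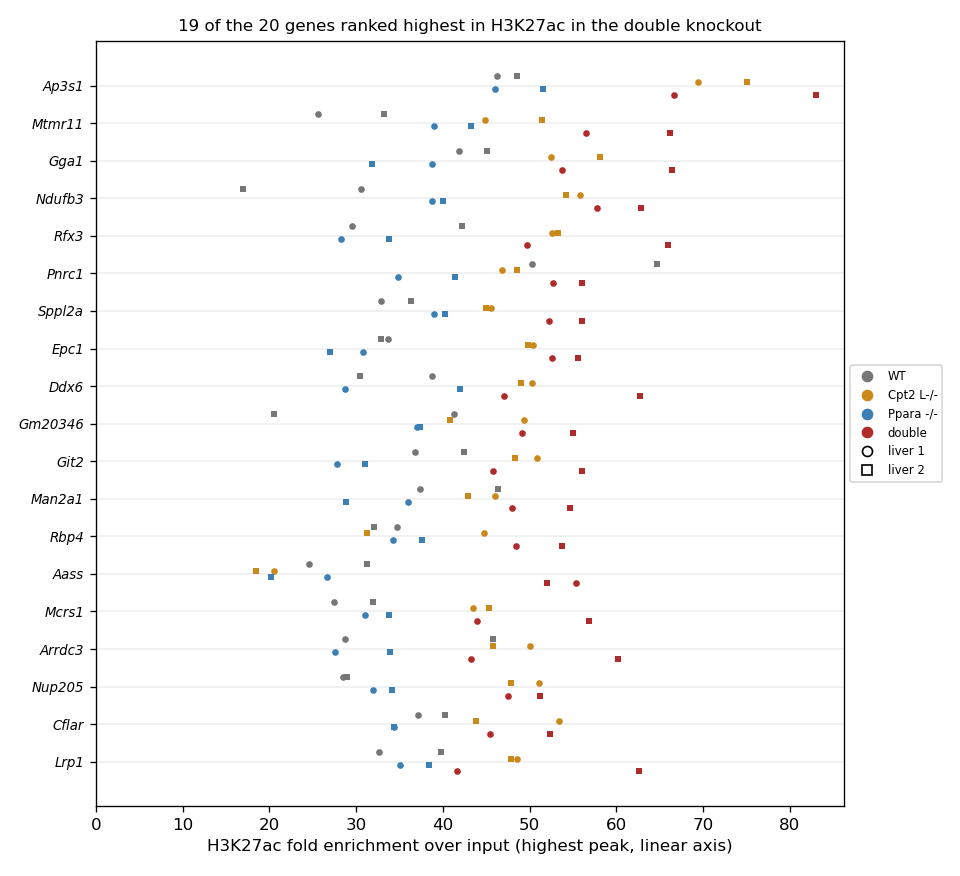
H3K27ac fold enrichment over input of the highest peak in the region (horizontal axis, linear) for 19 of the 20 genes ranked highest in the double knockout (vertical axis), with 1 point per liver coloured by genotype, a circle for liver 1 and a square for liver 2. Aass is the gene whose double knockout livers, 55.3 and 52.0, lie farthest above the other 6 livers, at most 31.2.

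The strongest H3K4me1 regions were acetylated as well. All 10 genes ranked highest in H3K4me1 had both marks, led by Krt78, a keratin, with folds of 22.4 and 22.9, and Slc13a3, a dicarboxylate transporter, with 20.04 and 24.4. Ncoa4 (the ferritin receptor of autophagy), Pptc7 (a mitochondrial phosphatase), Map3k5 (a stress-activated kinase), Rhbdf2, Prodh (proline dehydrogenase), Clcf1 (a cytokine), Kif12 (a kinesin) and Zmynd8 (a chromatin reader) followed.

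H3K4me1 without acetylation was strongest at Sulf2, an extracellular heparan sulfatase. Its region (chr2:166125428-166126685, inside the gene body) had H3K4me1 folds of 15.8 and 15.9 in the double knockout, at percentile 99.5. H3K27ac was called there at 8.90 and 6.25 in WT and at 22.2 and 21.1 in Cpt2 L-/-, and in no Ppara -/- or double knockout liver. Both genotypes with Ppara thus had the acetylation and both without it did not, at a region named for lacking it in the double knockout. Ccdc57, Paics (a purine synthesis enzyme), Crispld2, Tmcc2, Farp1, Rad51b (a DNA repair protein), Fam83f, Eya4 and Map3k1 were the next of this class, all but 2 of them with the middle of the region inside the gene body.

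Width gave another order than rank among the H3K27ac regions. Mat1a, the liver enzyme that makes S-adenosylmethionine, had a domain of 31308 bases (chr14:41093961-41125268) with folds of 37.0 and 35.7. Clmn had 20620 bases, Etnk2, an ethanolamine kinase, 18355 bases, and Mtss1 17816 bases. A domain of 17887 bases (chr2:173141158-173159044) covered the start of Pck1, the rate-limiting enzyme of gluconeogenesis, with 43.8 and 35.5 in the double knockout and 28.6 and 32.6 in WT. All 5 had both marks.

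Listed genes of hepatocyte function were acetylated nearly throughout. Of 21887 protein-coding genes, 10686 (48.8%) had an H3K27ac region in the double knockout, with a median percentile of 74.2, and 48.1% of their best regions had both marks. All 15 hepatocyte markers had one, with a median of 92.3, and 12 had both marks. Hnf4a stood highest of these at percentile 99.8, with folds of 42.0 and 47.8, followed by Tat, an enzyme of tyrosine breakdown, with 29.7 and 38.7. The tissue label is thus matched by its markers. Among 16 genes of other organs only Syt1 had a region, and of 10 lymphocyte markers only Ptprc.

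All 11 genes of gluconeogenesis had a region (median percentile 89.1, 8 with both marks), and so did all 15 genes of the urea cycle and amino acid breakdown (93.5, 11 with both marks) and all 6 of ketone synthesis (78.6, 4 with both marks). Got1, the aspartate aminotransferase, had 36.1 and 32.6 at a region of 7001 bases. Among transcription factors of hepatocytes 14 of 14 had a region (91.8, 12 with both marks), among secreted plasma proteins 25 of 25 (83.2, 22 with both marks), and among lipogenesis genes 11 of 12 (67.6, 10 with both marks), all but Me1. Bile acid genes had 11 of 12, all 11 with both marks, and lacked one at Cyp7a1, the rate-limiting enzyme of bile acid synthesis. Circadian clock genes had 16 of 18 (90.3, 12 with both marks) and cytochrome P450 genes of drugs and steroids 11 of 15 (75.8, 7 with both marks). Integrated stress response genes had 9 of 15 (84.6, 4 with both marks), without Atf4, Fgf21, Mthfd2, Phgdh, Psat1 and Slc7a11. General promoters had 13 of 15 (91.3, 9 with both marks).

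Genes of fatty acid oxidation and other Ppara targets had a region in 27 of 33, with a median percentile of 85.5, and 20 of those had both marks. The 6 without one were Acot3, Cyp4a14, Cyp4a31, Fgf21, Hadha and Vnn1. The start of Hadha is acetylated even so: it lies in a region with folds of 21.6 and 24.9 (chr5:30154299-30156055) that also holds the start of Hadhb and was given to Hadhb by its middle. Of the 59 listed genes without a region, Hadha was the 1 whose start lay in a region given to another gene. In WT and Cpt2 L-/- all 33 genes had a region, and in Ppara -/- 24 did. Cpt1a, the entry enzyme of the carnitine shuttle, ranked highest of the list in the double knockout, at percentile 95.7, with 23.2 and 29.2 over 8441 bases. Cyp4a10, a fatty acid hydroxylase, ranked lowest at 15.6, with 5.25 and 6.43 over 396 bases and no H3K4me1 region.

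Over all protein-coding genes, 5545 of the 10686 with an H3K27ac region in the double knockout had it without H3K4me1 at their best region. Markers of several other liver cells were mostly of that class. In the double knockout 9 of 12 Kupffer cell (resident macrophage) markers had an H3K27ac region, 8 of them without H3K4me1. All 12 endothelial markers had one, 8 without H3K4me1, and 7 of 12 stellate cell markers had one, 6 without. By contrast 3 of the 15 hepatocyte markers had H3K27ac only. This held in the other genotypes for Kupffer markers, 5 of 6 in each, and for endothelial markers, 8 or 9 of 12, while for hepatocyte markers 8 of 14 in WT, 4 of 14 in Cpt2 L-/- and 6 of 14 in Ppara -/- had H3K27ac only. Cholangiocyte markers had 2 of 8.

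Signal at the Kupffer markers was higher in the double knockout livers than in every other liver. The summed highest fold over the 12 genes, counting genes without a peak as 0, was 121 and 137 in the double knockout, 42.7 and 44.9 in WT, 81.1 and 94.7 in Cpt2 L-/- and 57.1 and 73.6 in Ppara -/-. Of the 12 genes, 11 and 10 had a peak in the double knockout, 6 and 5 in WT, 8 and 9 in Cpt2 L-/- and 6 and 8 in Ppara -/-. Marco was at 0 in all 8 livers, and Adgre1 and Cd5l were at 0 in both WT livers. Endothelial markers summed to 252 and 250 in the double knockout, 153 and 154 in WT, 259 and 231 in Cpt2 L-/- and 183 and 166 in Ppara -/-, and hepatocyte markers to 329 and 376, 233 and 236, 287 and 282, and 224 and 275. Stellate markers summed to 73.0 and 92.5 in the double knockout, 44.8 and 46.2 in WT, 95.8 and 81.1 in Cpt2 L-/- and 40.9 and 50.2 in Ppara -/-, with Col1a1 and Acta2 at 0 in every liver. Median H3K27ac folds over all peaks were 7.75 and 8.21 in the double knockout and 6.69 and 7 in WT. A peak counted only where its own middle was given to the marker, so the sums can miss a strong peak. Cd68 entered at 6.36 in WT liver 1 and 6.03 in Cpt2 L-/- liver 1, where the interval at the gene had 12.0 and 19.8. In the double knockout it entered at 18.25 and 21.25, as in the interval. Serpina1a entered at 9 and 14.75 in WT and 10 and 14 in the double knockout. Its interval had 22.2 and 35.6, and 11.5 and 14.

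Whether the double knockout combined the marks differently was asked liver by liver. In its livers 55.7% and 62.5% of H3K27ac peaks met an H3K4me1 peak of the same animal, a mean of 59.1% ± 4.77 (SD, n = 2). The values were 64.4% and 67.5% in WT, 60.0% and 56.3% in Cpt2 L-/- and 62.5% and 63.9% in Ppara -/-, a mean of 62.4% ± 3.90 (SD, n = 6). The groups overlapped, and the difference of -3.32 percentage points did not pass a two-sided exact permutation test (p = 0.286, adjusted p = 0.786 over 4 measures by Benjamini-Hochberg). With 2 livers against 6 the smallest p possible is 0.0714. Without liver 1 of the double knockout the difference was 0.0529 points.

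In the other direction, 49.5% and 51.8% of H3K4me1 peaks met H3K27ac in the double knockout (50.6% ± 1.605, SD, n = 2). The values were 47.2% and 46.5% in WT, 51.1% and 40.5% in Cpt2 L-/- and 45.8% and 54.5% in Ppara -/- (47.6% ± 4.80, SD, n = 6). These overlap as well, with a difference of 3.01 points and an exact two-sided permutation p of 0.429 (adjusted p = 0.786). Median peak widths were 547 and 586 bases for H3K27ac in the double knockout against 560 to 584 in the others (exact permutation p = 0.643), and 436 and 477 bases for H3K4me1 against 437 to 468 (exact permutation p = 0.786, adjusted p = 0.786 for both). A p that misses the threshold in this design does not show that the genotypes are alike.

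**Figure D4:**
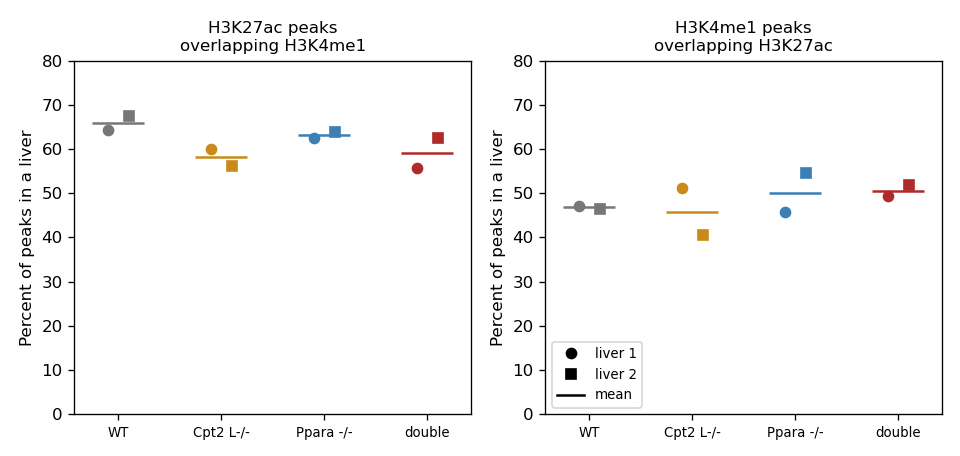
Percent of peaks in a liver that overlap a peak of the other mark in the same animal (vertical axis, from 0) for each genotype (horizontal axis), H3K27ac peaks on the left and H3K4me1 peaks on the right, with 1 point per liver and a line at the mean of 2 livers. The double knockout livers, 55.7% and 62.5% on the left and 49.5% and 51.8% on the right, lie within the range of the other 6 except liver 1 on the left, which is below the lowest of them, 56.3%.

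By regions in both livers, the double knockout had more H3K27ac regions than WT, 36587 against 31275, and 56.9% of them met H3K4me1, against 64.3% in WT, 50.9% in Cpt2 L-/- and 58.8% in Ppara -/-. Among its H3K4me1 regions 52.4% met H3K27ac, against 49.97%, 57.6% and 58.6%. At acetylated promoter windows the share with H3K4me1 was 16.7% and 22.2% in livers 1 and 2 of the double knockout, 11.2% and 12.7% in WT, 18.3% and 12.4% in Cpt2 L-/- and 11.9% and 18.7% in Ppara -/-. Both double knockout livers lay above both WT livers and overlapped the single knockouts, and no test was made of this share. The livers at 16.7% or more were those with a smallest H3K4me1 peak width of 210 bases or more. Those at 12.7% or less had 200 bases or less. The part of that width in the share was not tested.

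Differences in acetylation from WT were then tested at intervals called in all 8 libraries of a mark, with limma on the log2 of the authors' folds after each library was centred on its median. A fold belongs to its own peak list, so comparing lists assumes that they are scaled alike. Of 18281 H3K27ac intervals, 3685 (20.2%) passed at a Benjamini-Hochberg adjusted p under 0.05: 1576 (8.62%) were higher and 2109 (11.5%) lower in the double knockout. Without centring the split was 3155 higher and 860 lower, with a median difference over all intervals of 0.26 on the log2 scale, so directions here are relative to the median of a library. With the smallest peak width of a library as a covariate limma called 0 intervals, with 1747 at an unadjusted p under 0.05. That width was larger in both genotypes without Cpt2. It differed less within a genotype than between WT and the double knockout, so this fit can hardly tell width from genotype. Leaving out double knockout liver 2, double knockout liver 1 or WT liver 2 gave 1406, 1800 or 1663 calls.

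Calls were made in both classes of acetylated region. At intervals with both marks in the double knockout, 1152 of 12848 (8.97%) were higher and 1596 (12.4%) lower. At those with H3K27ac only, 424 of 5396 (7.86%) were higher and 488 (9.04%) lower. Intervals covering a gene start were higher in 287 of 6134 cases (4.68%) and lower in 762 (12.4%), and those without a start in 1289 of 12147 (10.6%) and 1347 (11.1%). Uncentred, intervals covering a start had 673 higher and 255 lower, so this direction depends on the centring.

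Far fewer H3K4me1 intervals passed the same test. The quartiles of the difference were closer: -0.33 and 0.31 on the log2 scale, against -0.45 and 0.36 for H3K27ac. In simulated data the fit also recovered fewer changed intervals for H3K4me1, 64 of 100 changed by 2 against 88 of 100 for H3K27ac. A small count of calls therefore does not show that H3K4me1 was unchanged. Of 19526 intervals 26 passed (0.133%), 19 higher (0.0973%) and 7 lower (0.0358%), with 3793 at an unadjusted p under 0.05. All 19 higher ones were among the 12769 intervals with both marks in the double knockout, and 3 of the 7 lower ones were among the 6645 with H3K4me1 only. No listed gene was among the 26. The count was 3 without centring, 0 with the width covariate (1324 at an unadjusted p under 0.05) and from 0 to 999 when a liver was left out: 0 without either WT or either double knockout liver, 992 and 999 without liver 1 or 2 of Cpt2 L-/-, and 92 and 53 without liver 1 or 2 of Ppara -/-.

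Fatty acid oxidation was the listed group with the most lower calls in H3K27ac. Of 24 intervals tested for its 33 genes, 10 fell and 0 rose, with a median of -0.57 on the log2 scale, beside 11.5% lower calls and a median of -0.04 over all intervals. The 24 are consensus intervals called in every liver. Each was given to a gene by its own middle, and each gene is represented by its interval with the highest mean fold. For 20 of the 24, and 8 of the 10 that fell, this interval holds the gene's best double knockout region. Hadha, without a region of its own, was tested at the interval that holds its start and did not pass (0.26, limma adjusted p = 0.337). Acaa1b, a peroxisomal thiolase, reached 22.0 and 33.8 in the WT livers, 37.4 and 32.0 in Cpt2 L-/-, 7.54 and 8.32 in Ppara -/- and 9.18 and 6.17 in the double knockout. The genotypes without Ppara were low and did not overlap those with it. The interval fell by 2.15 on the log2 scale against WT (SE 0.26, limma adjusted p = 0.00106).

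Cyp4a10 had 12.8 and 19.0 in WT, 29.5 and 19.8 in Cpt2 L-/-, 6.17 and 5.50 in Ppara -/- and 7 and 6.43 in the double knockout. Again the livers without Ppara were lower than all others, and the difference from WT was -1.52 (SE 0.27, limma adjusted p = 0.00326). Slc25a20, the carnitine-acylcarnitine carrier, had 14.6 and 21.7 in WT and 7.71 and 9.00 in the double knockout, a difference of -1.39 (SE 0.28, limma adjusted p = 0.00549). Aldh3a2, a fatty aldehyde dehydrogenase, fell by 1.52 (limma adjusted p = 0.00295) at an interval inside its body (chr11:61234269-61237932), with 6.62 and 5.42 in the double knockout. Its start lies in a stronger interval (chr11:61262804-61274698) with 17.6 and 24.7 in WT and 17.4 and 21.3 in the double knockout, which did not pass (-0.41, SE 0.21, limma adjusted p = 0.184). The called intervals of Acaa1b, Cyp4a10, Slc25a20 and Aldh3a2 passed also without centring and with any liver left out.

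The other 6 that passed were Acaa1a, Acot4, Fabp1 (the fatty acid binding protein of liver), Acsl1 (an acyl-CoA synthetase), Slc27a2 and Mfsd2a, with differences from -1.84 at Mfsd2a to -0.76 at Acaa1a. The best double knockout region of Mfsd2a lies in a neighbouring interval, which did not pass (-0.29, limma adjusted p = 0.578). These were less stable. Of all 10, 5 passed without centring, 4 without WT liver 2, 6 without double knockout liver 2, 8 without double knockout liver 1 and 8 without WT liver 1. With the width covariate 0 of 10 passed, and Acsl1 and Mfsd2a turned positive, at 0.04 and 0.69. Without double knockout liver 2 the difference at Mfsd2a was -0.92 (limma adjusted p = 0.185).

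**Figure D5:**
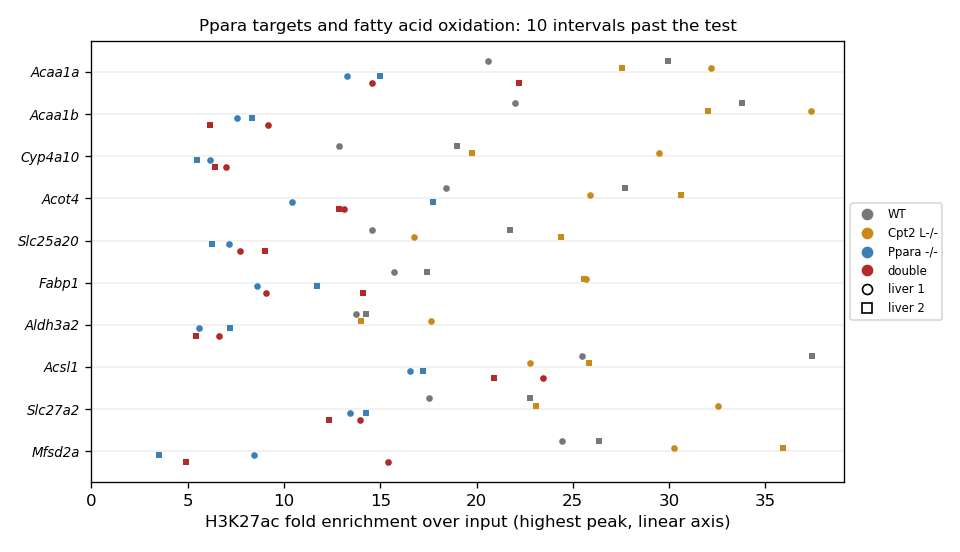
H3K27ac fold enrichment over input (horizontal axis, linear) at the 10 intervals of Ppara targets and fatty acid oxidation genes that passed the test against WT (vertical axis), with 1 point per liver coloured by genotype, a circle for liver 1 and a square for liver 2. At Acaa1b the double knockout livers, 9.18 and 6.17, lie with the Ppara -/- livers, 7.54 and 8.32, below WT and Cpt2 L-/-.

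Cpt1a, of the same list, did not pass. It had 23.0 and 24.7 in WT and 23.2 and 29.2 in the double knockout (-0.17, SE 0.17, limma adjusted p = 0.496). Before centring the WT and double knockout livers overlapped there.

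The counts of the other lists stand beside 11.5% lower and 8.62% higher calls over all H3K27ac intervals. Among hepatocyte transcription factors 5 of 14 fell and 1 rose. Cebpa, a factor of hepatocyte differentiation, had 33.8 and 41.5 in WT, 25.3 and 28.5 in Cpt2 L-/-, 17.6 and 25.5 in Ppara -/- and 17.4 and 22.4 in the double knockout, so all 6 knockout livers lay below WT. It fell by 1.22 (SE 0.19, limma adjusted p = 0.00199), and Foxa2, a pioneer factor, fell by 0.98 (SE 0.17, limma adjusted p = 0.0031). Nr5a2, Prox1 and Onecut1 were the other lower ones. At Prox1 and Onecut1 the called interval does not hold the gene's best double knockout region. The interval at the Prox1 start passed too (-0.69, limma adjusted p = 0.0237), and the best region of Onecut1 was not in an interval called in all 8 livers. Hnf4a was 28.6 and 27.8 in WT and 42.0 and 47.8 in the double knockout and did not pass after centring (0.37, limma adjusted p = 0.219). At Ppara itself the intervals differed in direction. One at chr15:85741614-85744699 had 13.7 and 18.6 in WT and 7.91 and 7.99 in the double knockout. Another at chr15:85767440-85780875 had 18.8 and 18.2 in WT and 23.2 and 22.2 in the double knockout. The higher call was at the interval chr15:85730896-85741526, with 16.2 and 21.1 in WT, 25.3 and 22.9 in Cpt2 L-/-, 20.2 and 28.4 in Ppara -/- and 32.3 and 43.9 in the double knockout (0.73, limma adjusted p = 0.016). Without double knockout liver 2 it did not pass (0.61, limma adjusted p = 0.127), nor without WT liver 1 (0.64, limma adjusted p = 0.0509).

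Clock genes had 4 lower of 15 and 0 higher, among them Clock, Hlf and Rora. Rora, a nuclear receptor of the clock's feedback loop, had 33.2 and 36.2 in WT, 11.7 and 18.8 in Cpt2 L-/-, 19.3 and 21.2 in Ppara -/- and 19.7 and 21.5 in the double knockout. All knockout livers lay below WT, and the difference of the double knockout from WT was -1.05 (SE 0.24, limma adjusted p = 0.00942). It passed without centring and missed the threshold without double knockout liver 2 (-1.01, limma adjusted p = 0.0547). Plasma proteins had 6 lower of 21 and 0 higher, among them Serpina1a, an alpha-1 antitrypsin gene with near-identical copies (-1.44, limma adjusted p = 0.00216), and Fgg, the fibrinogen gamma chain (-1.49, limma adjusted p = 0.00239). Fgg stood at 22.1 and 19.8 in WT and 8.65 and 9.63 in the double knockout. Lipogenesis had 3 lower of 8: Fasn, the fatty acid synthase, Mlxipl, the carbohydrate-response factor ChREBP, and Gpam. Fasn had 20.3 and 32.2 in WT and 12.2 and 12.5 in the double knockout (-1.35, SE 0.29, limma adjusted p = 0.00817), and it missed the threshold without WT liver 2 (-1.12, limma adjusted p = 0.0741) or double knockout liver 2 (-1.27, limma adjusted p = 0.0512).

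Higher calls among listed genes were fewer, and none passed with each liver left out in turn. Gluconeogenesis had 2 of 8, Got1 and Sds (serine dehydratase). Got1 had 13.4 and 20.2 in WT, 23.7 and 12.2 in Cpt2 L-/-, 31.2 and 35.5 in Ppara -/- and 36.1 and 32.6 in the double knockout, with both genotypes without Ppara above the rest (0.76, SE 0.25, limma adjusted p = 0.0453). It did not pass when any liver of WT, Ppara -/- or the double knockout was left out, with adjusted p from limma of 0.0623 to 0.237. Sds had 16.1 and 14.5 in WT and 37.4 and 26.0 in the double knockout (0.73, limma adjusted p = 0.0462), and 0.37 without double knockout liver 1 (limma adjusted p = 0.393). Trib3, a target of the stress response, and Cyp3a13, a drug-metabolising enzyme, were higher by 0.78 and 1.17. Urea cycle genes had 2 higher, Sds and Ass1, and 1 lower, Nags, of 12, beside 8.62% higher and 11.5% lower over all intervals.

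Calls were also made at markers of other cells. Kupffer markers had 2 higher of 5 and 0 lower, beside 8.62% higher and 11.5% lower over all intervals. C1qa, a complement component, had 7.24 and 7.998 in WT, 16.0 and 12.7 in Cpt2 L-/-, 8.96 and 8.57 in Ppara -/- and 18.1 and 19.7 in the double knockout, the highest of all (1.02, SE 0.23, limma adjusted p = 0.0102). Clec4f, a lectin of Kupffer cells, had 6.25 and 5.50 in WT and 16.2 and 12.2 in the double knockout (0.97, limma adjusted p = 0.0331). Without double knockout liver 1 neither passed (C1qa 0.98, limma adjusted p = 0.0584; Clec4f 0.67, limma adjusted p = 0.229), and C1qa did not without liver 2 either (1.05, limma adjusted p = 0.0514), nor Clec4f without WT liver 2 (0.77, limma adjusted p = 0.165). Endothelial markers had 2 higher (Pecam1 and Tek) and 1 lower (Lyve1) of 12, and stellate markers 1 higher, Hgf, of 4. The Lyve1 call is at an interval with 8.14 and 6.83 in WT and 4.5 and 5 in the double knockout. Its highest peak in the double knockout lies elsewhere in the gene, at 9.80 and 8.98, and was not called in WT. The part of these cells in the genome-wide calls was not tested.

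Of the 44 interval calls at listed genes, counted once per gene, 26 passed without centring, 40 after quantile normalization, and from 16 (without WT liver 2) to 40 when a liver was left out, 20 and 23 of them without liver 2 or 1 of the double knockout. None of the 44 passed with the width covariate, where 4 changed sign. For H3K27ac that covariate nearly follows the contrast of the double knockout with WT, so this loss cannot tell width from genotype.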

How the data were processed

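H3K27ac and H3K4me1 were measured by chromatin immunoprecipitation sequencing in 2 livers of each of 4 genotypes, and libraries were grouped by their sample titles. Reads were aligned with BWA and peaks called with MACS2 2.1.0 on mm10, per the submitters' processing notes, which do not say how these tools were set. Peaks were deposited per library, not on pooled livers. Column 7 of each list is a fold enrichment, a ratio made by the authors, and the −log10 q of each peak was also deposited by the authors. In 1 list, H3K27ac of Ppara -/- liver 2, the peak names do not say mm10, and its positions were read as mm10 like the rest. The authors also deposited consensus intervals per mark, used here for the tests. Read totals are not given in the sources used here, so depth sets no interval on any value. H3K9ac and input were not used here, and a few genes are not reported here.

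Regions, classes and percentiles were computed in Python 3.11.15, with an overlap of at least 1 base. A region was given to the protein-coding gene body holding its middle, or to the nearest within 1000 bases, and genes were ranked by the percentile of their best region. In limma each listed gene is represented by its interval of highest mean log2 fold, which for 148 of 163 holds its best double knockout region. Named are the 20 genes ranked highest, the 10 highest of each class with 1 mark, the 5 widest regions, and of each gene list its highest members, its members without a region and its calls in limma. Other genes named, such as the 10 highest in H3K4me1 and the printed promoters, were chosen after their values were seen. Library measures were compared by exact two-sided permutation tests. For tests of log2 folds limma 3.58.1 was used with R 4.3.3 (trend, 4 genotype means in 1 fit of 8 libraries, adjusted p under 0.05). In simulated data over 18281 H3K27ac intervals, this fit recovered 88 of 100 intervals changed by 2 on the log2 scale. It recovered 11 of 100 changed by 1, with 5 false calls. Over 19526 H3K4me1 intervals it recovered 64 and 6 of 100, with 1 false call. Each simulation changed 200 intervals, while 3685 H3K27ac intervals passed in the data. The adjusted threshold therefore differs, and these shares do not give the power of the reported test. P-values cover only the spread between these livers. Members and gene lists were chosen with earlier results of these data known. Alternatives were another overlap, threshold, region rule, centring, filter, width covariate and replicate block, and leaving out each liver.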

Additional observations from a re-analysis of the deposited data

How the results depend on the processing

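With 2 livers a genotype and no read depth, small differences were not detectable, and folds of separate lists may differ in scale. The percent of H3K4me1 regions with H3K27ac was 48.6 with an overlap of 50% of the shorter region, 47.6 over bases in peaks of both livers and 49.5 to 51.8 from 1 liver, and the percent of H3K27ac regions with H3K4me1 was 55.7 to 62.5 from 1 liver. Differences between the double knockout and the other genotypes changed sign: the share of H3K27ac peaks with H3K4me1 ran from -6.70 to 0.0529 points with a liver left out, and the share of H3K4me1 peaks with H3K27ac from 1.59 to 4.39 without changing sign. H3K27ac width went to 18.8 bases with equal numbers of peaks and ran from -25.8 to 13.2 with a liver left out. H3K4me1 width went to -31.0 bases at a −log10 q of at least 10, to -6.17 with equal numbers of peaks, and ran from -17.7 to 23.3 with a liver left out. The H3K27ac count against WT was 14076 when intervals called in at least 2 libraries were kept, 0 with the width covariate and 1406 to 3398 with a liver left out. The H3K4me1 count was 3 without centring, 51 with at least 2 libraries, 0 with the covariate and 0 to 999 with a liver left out. In the counts with at least 2 libraries, uncalled intervals were set to the lowest fold, so a missing peak entered as a low value. Those counts, 14076 and 51, mix calling with fold. They also come from another set of intervals, so they are not comparable as shares with the main counts. With the width covariate Acsl1 went to 0.0364, Mfsd2a to 0.69, Ass1 to -0.001011 and Cyp3a13 to -0.010595. Same-numbered livers of different genotypes are different animals and deviated together with r from -0.06 to 0.17 for H3K27ac and -0.49 to 0.10 for H3K4me1, so numbers do not pair them. A replicate block gave 3947 H3K27ac calls, 0 H3K4me1 calls (3312 at an unadjusted p under 0.05 in limma) and exact permutation p of 0.375, 0.625, 0.625 and 0.875 for the 4 library measures, and it lost 1 of the 44 calls at listed genes. The cause of these changes was not tested.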

Other observations

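MicroRNA genes in acetylated regions were a further readout of the double knockout. Of 1005 mouse hairpins in RefSeq, 104 (10.3%) overlapped an H3K27ac region of the double knockout, 39 of them with H3K4me1 at the hairpin and 65 without. The hairpins of a whole chromosome were left out of the ranking and are not reported here. Among the rest Mir1931 stood highest, at percentile 99.7. Its region had folds of 39.1 and 43.4 in the double knockout and 37.1 and 53.8 in WT. Mirlet7i, of the let-7 family of differentiation-linked microRNAs, stood at percentile 98.6 with 29.2 and 36.5 and no H3K4me1 at the hairpin. Mir21a, an abundant microRNA often raised in injured and growing tissue, stood at percentile 98.3 with 28.6 and 34.6, against 24.1 and 25.4 in WT, 23.0 and 25.2 in Cpt2 L-/- and 24.5 and 21.6 in Ppara -/-. The double knockout livers were the highest of the 8 at Mir21a and overlapped WT at Mir1931. A hairpin in an acetylated region does not measure the microRNA, and these genes were chosen for their rank, so no test is given. The mature forms, from RefSeq, are shown with the seed (bases 2 to 8) in capitals, and the 3 seeds differ.
miR-21a-5p: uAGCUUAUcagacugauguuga
let-7i-5p: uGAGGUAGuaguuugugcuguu
miR-1931: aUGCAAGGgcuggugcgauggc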
